A study of Homo sapiens with 24 samples.

Results

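TNRC6AB-/- HCT116 cells that had been transfected with the control duplex siGL2 were set against TNRC6AB-/- cells that had not been transfected. The libraries were taken by their labels, 3 with the double knockout genotype and siGL2 and 3 with the same genotype and no duplex, which is 6 of the 24 libraries of the series. HCT116 is a diploid human colorectal cancer line, and the study sequenced whole-cell RNA of 8 groups of 3 libraries to ask how loss of the TNRC6 paralogs changes gene expression. Both groups compared here carry the same alleles, a frameshifting point mutation in TNRC6A and a large deletion in TNRC6B, and both keep TNRC6C intact. Transfection meant a noncomplementary duplex RNA delivered with Lipofectamine RNAiMAX, and double knockout cells were seeded more densely for it because they grow slowly. The comparison therefore holds the duplex, the lipid, the seeding and any difference in harvest or library preparation together, and these cannot be told apart. The knockout cells were bought as a ready line, so 1 double knockout line stands for the genotype. The same duplex in wild-type HCT116 cells, 3 libraries with siGL2 and 3 without, is given beside the results, and it shares no library with the double knockout comparison.

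TNRC6 proteins, also known as GW182 proteins, bind Argonaute proteins loaded with small RNAs and recruit the deadenylation machinery that represses the bound messenger RNA. A small interfering RNA such as siGL2 is loaded into Argonaute, its guide strand is kept and its passenger strand is discarded, and the seed near the 5′ end of the guide can pair with short matches in untranslated regions (UTRs). siGL2 is directed against firefly luciferase, a gene that human cells do not have, and is used as a control for the act of transfection itself. Cells can also sense double-stranded RNA through cytosolic receptors that induce interferon and interferon-stimulated genes, and lipid complexes load membranes and lysosomes.

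Both strands of the duplex are printed because the seed determines which human messenger RNAs could be met by chance. They are given 5′ to 3′ without the deoxythymidine overhangs, with the seed, bases 2 to 8, in capitals.
siGL2 guide strand (AS): uCGAAGUAuuccgcguacg
siGL2 passenger strand (SS): cGUACGCGgaauacuucga
Each strand is 19 bases long. No transcript of a tested gene held a perfect complement to either strand longer than 12 bases, and matches of that length lay in 4 genes for the guide and 3 for the passenger. One of those genes, the uncharacterised AC008687.4, passed the test (log2 change -1.37, adjusted p = 0.00566, edgeR), at a level of 1.39 CPM in TNRC6AB-/- cells. The other guide matches did not pass. COQ8A, an ADCK-family protein of coenzyme Q synthesis, moved by -0.05 (adjusted p = 0.816, edgeR), HDDC3 by -0.24 and RHOBTB1 by 0.60.

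Genes that carry a seed match in the 3′ UTR of their most abundant transcript had a median close to that of all genes. The 7-base site of the guide, TACTTCG, lay in 152 of 14915 genes with a UTR, and their median log2 fold change was 0.06 against 0.01 over all 14915 genes. Of these 152 genes 8 rose and 9 fell by the fold threshold given below (5.26% and 5.92%), beside 5.48% and 6.97% of all genes with a UTR. Genes with the site had longer UTRs, with a median of 2928 bases against 888 bases without it. In the longest of 3 equal bins of UTR length, the 114 with the site had a median of 0.06 and the 4856 without it 0.02. The passenger site, CGCGTAC, lay in 30 genes, whose median was -0.07, with 1 higher and 2 lower. In wild-type cells the same sets had medians of 0.05 with the guide site, 0.25 with the passenger site and 0.15 over all genes with a UTR. In the longest bin of UTR length the wild-type medians were 0.03 with the guide site and 0.125 without it. No test was made of these sets, which rest on letters in a transcript and not on measured binding.

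The libraries of TNRC6AB-/- siGL2 cells held 31197066 to 40728709 reads and those of TNRC6AB-/- cells 28822976 to 36919015. Replicates lay closer together after transfection, with a biological coefficient of variation of 0.08 in TNRC6AB-/- siGL2 cells and 0.20 in TNRC6AB-/- cells. Fragments averaged 206 to 210.2 bases in TNRC6AB-/- siGL2 libraries and 184.4 to 190.5 bases in TNRC6AB-/- libraries, without overlap. Over all 24 libraries the transfected ones averaged 195.7 to 213.1 bases and the untransfected ones 164.4 to 190.5 bases, also without overlap. The part of this in the results was not tested. Mitochondrial transcripts took 5.96 to 6.53% of reads with siGL2 and 6.78 to 7.98% without. TNRC6AB-/- library 1 stood apart from libraries 2 and 3 in the interferon-stimulated genes and library 3 in small nuclear and nucleolar RNAs, as described beside those genes. Retained-intron transcripts took 5.15% of reads in TNRC6AB-/- library 1, 3.86% in library 2 and 3.52% in library 3, and 3.52 to 4.5% with siGL2. Long intergenic noncoding RNAs summed to 24330, 15910 and 15260 CPM in TNRC6AB-/- libraries 1 to 3, and to 15020 to 19470 CPM with siGL2. Of 10 markers of a colorectal epithelial line 9 passed the filter on low counts, and KRT8 (925 ± 81.6 CPM with siGL2, 1000 ± 66.5 without, mean ± SD, n = 3 each), KRT18, KRT19 and EPCAM were well expressed, while VIL1 and CDH17 were below 1 CPM in both groups. Of 18 markers of blood, endothelium, liver and fibroblasts 11 passed the filter, and their summed level was 41.9 to 46.6 CPM with siGL2 and 61.6 to 101.2 CPM without. Only COL3A1 among these 11 differed between the groups.

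In all 2635 of 24153 genes changed between TNRC6AB-/- siGL2 and TNRC6AB-/- cells, where changed means a Benjamini-Hochberg adjusted p below 0.05 in edgeR's quasi-likelihood test and a log2 fold change past 0.6 in size. Of these 966 were higher with siGL2 (4.0% of genes tested) and 1669 were lower (6.91%). By the adjusted p alone, which is used for gene lists and single genes, 2351 genes were higher (9.73%) and 2512 lower (10.4%). Counts over gene lists in TNRC6AB-/- cells are to be read beside these shares. The median of all genes was -0.06. DESeq2 called 2516 genes changed. Among protein-coding genes the split was closer, with 832 higher and 1067 lower of 15341 tested. Beyond a log2 fold change of 2, 56 genes were higher and 139 lower. CPM values of the 6 libraries did not overlap between the groups in 2529 of the 2635 changed genes, where 35.7% of all genes tested did not overlap. In bulk RNA, fewer cells of a kind and less RNA per cell cannot be told apart.

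The genes with the largest rises included several best known from other tissues. NEUROD2 (ENSG00000171532.4, GRCh38 chromosome 17, 39603536 to 39609777, minus strand), a neuronal transcription factor of the basic helix-loop-helix class, led them. It stood at 43.1, 47.4 and 52.6 CPM (read counts relative to library size after TMM scaling) in TNRC6AB-/- siGL2 libraries 1 to 3, against 2.21, 2.31 and 1.93 CPM in TNRC6AB-/- libraries 1 to 3. The log2 fold change was 4.47 (SE 0.20, adjusted p = 1.1e-12, edgeR). The largest rises were named only from genes whose groups did not overlap. NRG1, which encodes ligands of ERBB receptors, was at 6.61, 6.41 and 5.56 CPM with siGL2 and 0.567, 0.456 and 0.302 CPM without (3.80, SE 0.33, adjusted p = 7.9e-08, edgeR). DCLK1, a microtubule-associated kinase used as a marker of intestinal tuft cells, was at 31.5, 29.2 and 27.5 CPM with siGL2 and 1.29, 3.14 and 5.94 CPM without (3.08, SE 0.39). MGLL, the monoacylglycerol lipase, was at 27.1, 24.0 and 22.8 CPM with siGL2 and 1.10, 1.85 and 6.27 CPM without (3.0, SE 0.43). In DCLK1 and MGLL the siGL2 libraries were alike and the untransfected libraries spread over several-fold, with library 3 the highest.

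RPS6KA6 and FGF23 rose with little spread between libraries. RPS6KA6 (chromosome X, 84058346 to 84187907, minus strand), a kinase of the p90 ribosomal S6 kinase family, was at 7.70, 8.58 and 10.3 CPM with siGL2 and 1.64, 1.5 and 1.45 CPM without (log2 change 2.53, SE 0.20, adjusted p = 2.5e-08, edgeR). FGF23 (chromosome 12, 4368227 to 4379728, minus strand), a hormone that lowers blood phosphate, was at 28.6, 30.1 and 37.4 CPM with siGL2 and 7.31, 6.49 and 6.12 CPM without (2.27, SE 0.17). Neither gene's groups overlapped, as the rule for naming them required. Smaller or lower-count rises were those of SUN3, a nuclear envelope protein of the testis (2.65), KRTAP3-1, a hair keratin-associated protein (2.59), and TNNC1, the slow skeletal and cardiac troponin C (2.44). DACT1, a regulator of Wnt signalling that binds Dishevelled, rose by 2.30 and GAL, the neuropeptide galanin, by 2.08. In these 5 genes every siGL2 library was above every untransfected one, which the rule that named them required.

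**Figure D1:**
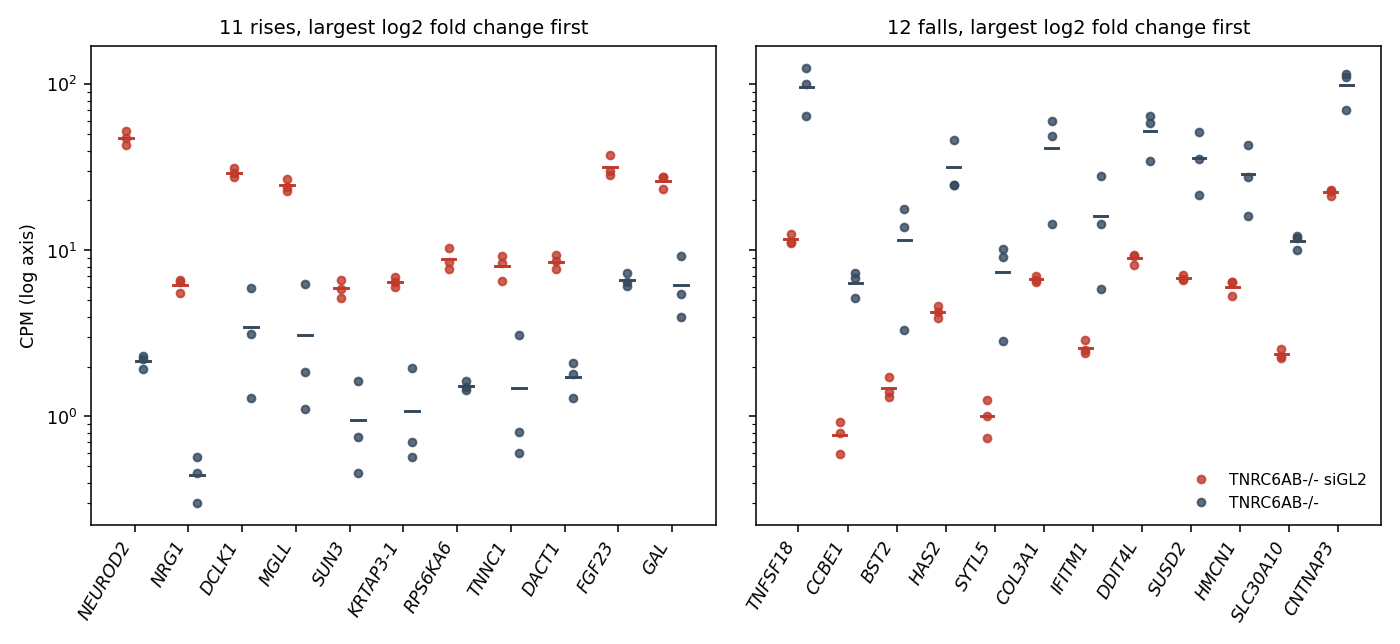
CPM on a log axis of 11 of the 12 protein-coding genes with the largest rise (left) and the 12 with the largest fall (right) among changed genes that reached 5 CPM in the higher group without overlap, with TNRC6AB-/- siGL2 libraries in red, TNRC6AB-/- libraries in dark blue and a bar at each mean of 3. NEUROD2 leads the rises at 43.1 to 52.6 CPM with siGL2 against 1.93 to 2.31 CPM without, and the dark points of most falling genes spread more widely than the red ones.

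TNFSF18, the ligand of the T cell receptor GITR, had the largest fall among the genes named by rule and was at 12.6, 11.2 and 11.2 CPM in TNRC6AB-/- siGL2 libraries and 64.4, 126 and 100.2 CPM in TNRC6AB-/- libraries (log2 change -3.06, SE 0.28, adjusted p = 1.9e-07, edgeR). CCBE1, a secreted factor of lymphatic vessel growth, was under 1 CPM in each siGL2 library and at 5.14, 7.29 and 6.79 CPM without (-3.05, SE 0.26). HAS2, which makes the matrix polymer hyaluronan, was at 3.91, 4.6 and 4.24 CPM with siGL2 and 24.9, 46.1 and 24.7 CPM without (-2.91, SE 0.27). The rule that named these genes required no overlap and ranked them by fold change, so their wide separation is not a further result.

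CNTNAP3, a neurexin-family adhesion protein, fell by 2.14 on the log2 scale (23.1, 22.9 and 21.3 CPM with siGL2; 111, 116 and 70.2 CPM without; adjusted p = 7.2e-09, edgeR). DDIT4L, which restrains the growth kinase mTORC1, fell by 2.55 and SLC30A10, a manganese exporter, by 2.26. SUSD2 (-2.42), a membrane protein with a sushi domain, HMCN1 (-2.27), an extracellular matrix hemicentin, and SYTL5 (-2.89), an effector of Rab27, also fell. COL3A1, a collagen chain counted among the fibroblast markers, was at 7.05, 6.49 and 6.60 CPM with siGL2 and 14.5, 49.2 and 60.4 CPM without (-2.62, SE 0.30). COL1A1, its partner in fibroblasts, did not pass (28.8 ± 2.41 CPM with siGL2, 33.7 ± 3.60 CPM without, mean ± SD, n = 3 each), and DCN, PDGFRB and PECAM1 stayed under 2 CPM in each group's mean. BST2 and IFITM1 belong to the interferon-stimulated genes and are described with them.

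Genes of ribosome biogenesis and targets of MYC rose almost as a block. Of 44 members 40 were higher with siGL2 and 0 lower by the adjusted p, where 9.73% of all genes were higher. All 44 had positive log2 fold changes, between 0.29 (UTP20) and 1.15 (MYC), with a median of 0.62 against -0.06 over all genes. The groups were without overlap in all 44, beside 35.7% of all genes tested. MYC itself, the transcription factor that drives growth genes, was at 132, 129 and 113 CPM in TNRC6AB-/- siGL2 libraries and 42.1, 48.3 and 77.2 CPM in TNRC6AB-/- libraries (1.15, SE 0.22, adjusted p = 0.00083, edgeR). DDX10, a nucleolar RNA helicase, was at 75.2, 72.2 and 70.8 CPM with siGL2 and 43.3, 40.8 and 47.4 CPM without (0.73, SE 0.11, adjusted p = 4.6e-05, edgeR). HEATR1 (0.61) and WDR43 (0.85), factors of the small subunit processome, and the nucleolar protein LYAR (1.02) also rose. The summed level of the list was 6527 to 7609 CPM with siGL2 and 4270 to 4740 CPM without. The count of higher members lay between 35 and 41 when any 1 library was left out.

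Aminoacyl-tRNA synthetases, which charge transfer RNAs for translation, had 10 of 20 members higher and 0 lower, with a median of 0.42. FARSB, a subunit of the phenylalanine enzyme, rose by 0.76, IARS, the isoleucine enzyme, by 0.68, and KARS, the lysine enzyme, by 0.64. KARS was at 172, 158 and 141 CPM with siGL2 and 92.6, 95.8 and 115 CPM without. The count was 6 without TNRC6AB-/- siGL2 library 1, and 15 in the 6 libraries alone. Cytosolic ribosomal proteins had 9 of 70 members higher and 0 lower (median 0.23), a share close to the 9.73% of all genes, and that count was 1 without TNRC6AB-/- siGL2 library 1 or 2 or TNRC6AB-/- library 1 or 2, 6 without wild type library 1, and 19 without TNRC6AB-/- library 3.

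Genes of the G2 phase and mitosis were higher in 47 of 54 members, where 9.73% of all genes were, and lower in 1, with a median of 0.72. AURKA, the mitotic kinase of the centrosome, was at 110, 104 and 93.8 CPM in TNRC6AB-/- siGL2 libraries and 54.7, 52.6 and 48.6 CPM in TNRC6AB-/- libraries (log2 change 0.98, SE 0.19, adjusted p = 0.00082, edgeR). NEK2, another centrosomal kinase, rose by 0.92, SGO1, which protects cohesion at centromeres, by 0.79, and CDCA8, a subunit of the chromosomal passenger complex, by 0.77. The exception was CDC25B, a phosphatase that starts mitosis (-0.33). The groups did not overlap in 53 of the 54 members, beside 35.7% of all genes tested. Untransfected library 3 was the lowest for the list, with 5456 CPM summed against 6863 and 6969 CPM in libraries 1 and 2 and 9405 to 10970 CPM with siGL2, and the count of higher members was 26 without it and 28 without TNRC6AB-/- siGL2 library 1. The paper reports reduced growth of double knockout cells with siGL2 or the siTNRC6C pool. It also reports that either duplex, given with lipid, strongly altered their cell cycle. The relation of these RNA levels to growth or cell cycle was not tested.

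DNA replication and S phase genes had 13 of 50 members higher and 0 lower (median 0.41). TIPIN, which stabilises replication forks, was among them (0.92, SE 0.15, adjusted p = 0.00022, edgeR). This count was 3 without TNRC6AB-/- siGL2 library 1 or TNRC6AB-/- library 2, between 4 and 6 without TNRC6AB-/- siGL2 library 2 or 3 or TNRC6AB-/- library 3, 8 without wild type siGL2 library 1, 29 without wild type library 2, and 36 in a fit of the 6 libraries alone. Replication-dependent histone genes had 1 of 18 higher, and cyclins, kinases and inhibitors of G1 had 3 of 23 higher and 1 lower, with CDC25A, the phosphatase that opens S phase, higher by 0.97. The 3 higher G1 genes were 1 without TNRC6AB-/- siGL2 library 1, 5 without TNRC6AB-/- library 2 or wild type siGL2 library 3, and 7 without wild type library 2, and the 1 histone gene was 0 without TNRC6AB-/- siGL2 library 1 or 2 or TNRC6AB-/- library 1 or 2. In wild-type cells 50 of the 54 G2 and mitosis genes were higher with siGL2 (median 0.76), where 16.4% of all genes were. The test of the difference between the genotypes called 0 of the 54 higher and 1 lower. The wild-type count was 31 without wild type library 2, 33 without wild type siGL2 library 1 and 0 in a fit of the 6 wild-type libraries alone, an edgeR fit that called 90 genes in all.

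Interferon-stimulated genes were lower in TNRC6AB-/- siGL2 cells than in TNRC6AB-/- cells. Of 50 members 0 were higher and 31 lower, where 10.4% of all genes were lower, and all 50 had negative log2 fold changes, between -2.97 (BST2) and -0.15 (TRIM22), with a median of -0.79. BST2, or tetherin, which holds budding virus at the cell surface, was at 1.74, 1.32 and 1.4 CPM with siGL2 and 3.31, 13.9 and 17.7 CPM without (-2.97, SE 0.46, adjusted p = 0.0001, edgeR). IFITM1, a membrane protein that restricts viral entry, was at 2.88, 2.51 and 2.42 CPM with siGL2 and 5.83, 14.3 and 27.9 CPM without (-2.62, SE 0.39). In both genes untransfected library 1 lay closest to the transfected ones.

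STAT2, which carries the interferon signal to the nucleus, was at 54.3, 52.2 and 55.2 CPM with siGL2 and 76.1, 97.8 and 105 CPM without (log2 change -0.79, SE 0.09, adjusted p = 5.4e-06, edgeR). PARP10, an ADP-ribosyltransferase, fell by 2.14 and IFI35, an interferon-induced protein that binds other regulators of the response, by 1.55. Several members that sense or act on double-stranded RNA are named here after their values were seen. IFIH1 (MDA5) had a log2 fold change of -0.91, DDX58 (RIG-I) of -0.59, DHX58 (LGP2) of -1.01 and EIF2AK2 (PKR) of -0.46, and OAS1, which makes the activator of RNase L, had one of -2.25. These 5 passed the test, although in IFIH1, DDX58 and EIF2AK2 untransfected library 1 lay within or below the siGL2 libraries. IFIH1 was at 17.4, 16.7 and 16.4 CPM with siGL2 and 13.4, 38.6 and 42.6 CPM without.

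The fall of the list depended on which untransfected libraries were compared. The summed level of the 50 genes was 1626, 1556 and 1502 CPM in TNRC6AB-/- siGL2 libraries 1 to 3, against 1555, 3018 and 3174 CPM in TNRC6AB-/- libraries 1 to 3. Untransfected library 1 thus lay within the range of the transfected libraries, and the groups did not overlap in only 17 of the 50 genes, or 34%, beside 35.7% of all genes tested. With library 1 left out 40 members were lower, and with library 2 or library 3 left out 17 were. Without TNRC6AB-/- siGL2 library 2 the count was 20. The plot of gene lists by library shows the same split.

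**Figure D2:**
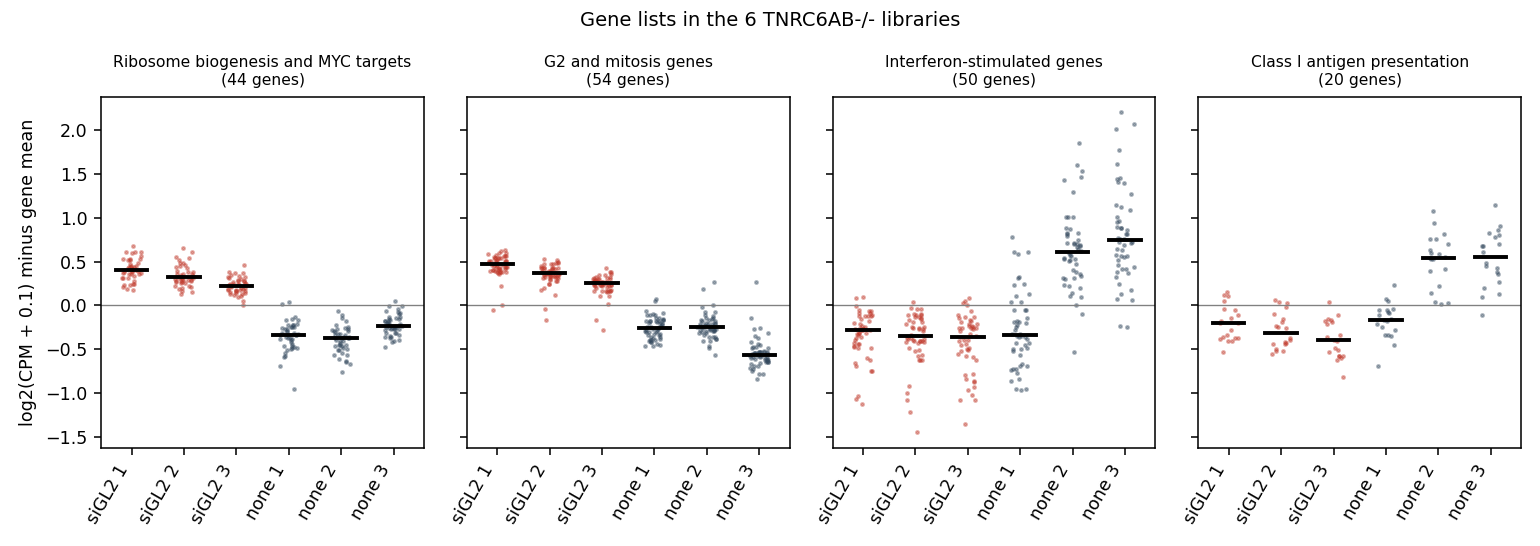
Each gene's log2(CPM + 0.1) minus its mean over the 6 TNRC6AB-/- libraries, for 4 gene lists, with siGL2 libraries in red, untransfected libraries (none) in dark blue, 1 point per gene and a bar at each library's median. The medians of ribosome biogenesis and G2 genes separate all siGL2 libraries from all untransfected ones, while untransfected library 1 sits with the siGL2 libraries in interferon-stimulated and class I genes.

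Class I antigen presentation, the pathway that loads peptides on HLA molecules and overlaps in regulation with interferon genes, had 0 of 20 members higher and 13 lower (median -0.73). TAPBP, or tapasin, which holds HLA molecules to the peptide transporter, was at 106, 97.1 and 88.2 CPM in TNRC6AB-/- siGL2 libraries and 151, 186 and 174 CPM in TNRC6AB-/- libraries (-0.81, SE 0.11, adjusted p = 3.1e-05, edgeR). HLA-E was at 61.0, 57.4 and 54.0 CPM with siGL2 and 77.1, 138 and 141 CPM without (-1.05, SE 0.17). PSME1, a subunit of the proteasome activator PA28, fell by 0.92, and HLA-C by 0.99, though reads of HLA genes can be divided among close paralogs. B2M, the invariant light chain, was at 291, 280 and 253 CPM with siGL2 and 296, 489 and 468 CPM without (-0.60, adjusted p = 0.012, edgeR), a call that was lost without TNRC6AB-/- siGL2 library 3 and without TNRC6AB-/- library 2 or library 3. The chaperones CALR, CANX and PDIA3, which serve all secreted proteins, moved by 0.07 at most. The count of lower members was 15 without untransfected library 1 and 9 without library 2.

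AP-1 and immediate early genes, which respond within minutes to growth factors and stress, had 17 of 35 members lower and 1 higher (median -0.50). JUNB, an AP-1 subunit, was at 40.2, 39.8 and 35.1 CPM in TNRC6AB-/- siGL2 libraries and 93.9, 63.8 and 109 CPM in TNRC6AB-/- libraries (log2 change -1.21, SE 0.14, adjusted p = 4.5e-06, edgeR). DUSP4, a phosphatase of MAP kinases, was at 140, 127 and 122 CPM with siGL2 and 249, 302 and 256 CPM without (-1.05), and PHLDA1, another early growth factor target, fell by 1.01. EGR2, an early zinc finger factor, was at 3.03, 4.03 and 3.58 CPM with siGL2 and 20.2, 6.95 and 11.01 CPM without (-1.84). The member that was higher is MYC. The count of lower members was 11 without TNRC6AB-/- siGL2 library 2 or library 3.

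NF-kappaB and inflammatory genes had 1 of 21 higher and 6 lower (median -0.19), with 2 lower without TNRC6AB-/- siGL2 library 2 and 3 without siGL2 library 3 or TNRC6AB-/- library 2 or 3. LIF, a cytokine of the interleukin-6 family, was at 47.2, 47.1 and 47.0 CPM with siGL2 and 137, 97.2 and 90.2 CPM without (-1.2, SE 0.14, adjusted p = 3.2e-06, edgeR). Targets of TGF-beta had 3 of 27 higher (11.1%, beside 9.73% of all genes), or 5 without TNRC6AB-/- library 3, and 6 lower (22.2%, beside 10.4%). Wnt targets and intestinal stem cell genes had 2 of 19 higher (10.5%), MYC among them, and 6 lower (31.6%). CD44, a hyaluronan receptor, was at 443, 413 and 383 CPM with siGL2 and 898, 919 and 761 CPM without (-1.06, SE 0.15). TNFRSF19, a stem cell receptor, was lower by 1.36 on the log2 scale. YAP and TEAD targets had 5 of 24 higher (20.8%) and 3 lower (12.5%). The 6 lower TGF-beta targets were 3 without any 1 TNRC6AB-/- siGL2 library or TNRC6AB-/- library 2, and the 5 higher YAP targets were 3 without TNRC6AB-/- siGL2 library 1 or 2 or TNRC6AB-/- library 1 or 2.

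Targets of p53 had 11 of 34 members higher (32.35%, beside 9.73% of all genes) and 1 lower (median 0.28). MDM2, the ubiquitin ligase that restrains p53, was at 707, 680 and 629 CPM in TNRC6AB-/- siGL2 libraries and 456, 422 and 399.6 CPM in TNRC6AB-/- libraries (log2 change 0.66, SE 0.10, adjusted p = 6.9e-05, edgeR). FAS, a death receptor, was at 32.5, 32.5 and 29.8 CPM with siGL2 and 19.5, 21.4 and 18.5 CPM without (0.67). The count was 7 without TNRC6AB-/- siGL2 library 1. BCL2 family and death receptor genes had 3 of 27 higher and 3 lower, 11.1% each way, close to the 9.73% and 10.4% of all genes. The higher count there was 1 without TNRC6AB-/- siGL2 library 1 or 2 or TNRC6AB-/- library 1 or 2, and 5 without TNRC6AB-/- library 3, and the lower count was 1 without TNRC6AB-/- siGL2 library 2 or 3.

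The 16 genes listed as core to the RNA interference machinery had log2 fold changes between -0.33 (AGO4) and 0.57 (HSP90AA1). HSP90AA1 is a general chaperone and did not pass the test. The largest change that passed was 0.48. TNRC6A RNA was at 65.5, 65.8 and 70.5 CPM with siGL2 and 57.0, 50.2 and 45.9 CPM without (log2 change 0.40, SE 0.10, adjusted p = 0.0066, edgeR), and TNRC6B RNA at 86.9, 83.2 and 77.4 CPM with siGL2 and 90.5, 98.5 and 90.3 CPM without (-0.17, adjusted p = 0.21, edgeR). TNRC6C, the paralog left intact, was at 127, 119 and 113 CPM with siGL2 and 91.8, 103 and 90.5 CPM without (0.33, SE 0.09, adjusted p = 0.0083, edgeR). The calls on TNRC6A and TNRC6C were both lost when counts were scaled from TPM and transcript length, and that on TNRC6C also without TNRC6AB-/- siGL2 library 1. DICER1, which makes microRNAs, rose by 0.36 (212, 200.4 and 180.0 CPM with siGL2; 153, 158 and 151 CPM without). The Argonautes AGO1 (-0.01), AGO2 (0.12), AGO3 (0.07) and AGO4 (-0.33) did not pass. Of 16 core genes 5 were higher and 0 lower (median 0.22), which is 31.25% higher beside 9.73% of all genes. The count of 5 was 2 without TNRC6AB-/- siGL2 library 1. Of 32 deadenylation and decapping factors 6 were higher (18.75%) and 2 lower (6.25%, beside 10.4% of all genes), with a median of 0.10.

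Targets of let-7, a microRNA that restrains growth genes, had 10 of 29 members higher and 1 lower (median 0.24). ARID3A, a DNA-binding factor, was at 86.0, 83.1 and 75.4 CPM in TNRC6AB-/- siGL2 libraries and 37.4, 39.7 and 50.4 CPM in TNRC6AB-/- libraries (0.94, SE 0.13, adjusted p = 2.5e-05, edgeR). HMGA2, a chromatin protein with many let-7 sites, was at 684, 682 and 622 CPM with siGL2 and 466, 486 and 484 CPM without (0.47, SE 0.09, adjusted p = 0.00047, edgeR). COIL, the scaffold of Cajal bodies, rose by 0.65 and the GTPase NRAS by 0.54. Targets of the miR-17 and miR-200 families had 4 of 34 higher, or 2 without TNRC6AB-/- siGL2 library 1 or 2, and 6 lower (median -0.01), and ZEB1, a repressor of epithelial genes that miR-200 targets, was lower by 0.70 on the log2 scale.

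Stress and metabolic lists moved in parts only. Heat shock proteins had 7 of 18 members higher and 0 lower (median 0.40), or 11 higher without wild type library 3, led by CHORDC1, an HSP90 cochaperone (146, 139 and 129 CPM with siGL2; 84.2, 64.3 and 69.5 CPM without; 0.93, adjusted p = 1.8e-05, edgeR), and HSPD1, the mitochondrial chaperonin (0.75). The integrated stress response had 2 of 31 higher, SLC7A5, a leucine transporter (1.49, SE 0.33), among them, a count that was 1 without TNRC6AB-/- siGL2 library 1 and 5 without wild type library 3, and the unfolded protein response 1 of 20 lower. Genes of NRF2 and metal responses had 4 of 24 higher and 5 lower. NQO1, a quinone reductase, was at 169, 161 and 144 CPM with siGL2 and 305, 260 and 291 CPM without (-0.85, SE 0.12), while AKR1B10, an aldo-keto reductase, rose by 2.69 at levels below 1 CPM in every library.

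Genes of glycolysis and hypoxia had 4 of 40 higher (10.0%) and 3 lower (7.5%), with a median of -0.01. Of all genes 9.73% were higher and 10.4% lower. The lower count was 0 without TNRC6AB-/- siGL2 library 2 or TNRC6AB-/- library 3, 1 without TNRC6AB-/- siGL2 library 1 or 3, 5 without TNRC6AB-/- library 1 or wild type library 2, and 6 without wild type library 3. The glucose transporter SLC2A3 was at 330, 302 and 283 CPM with siGL2 and 57.7, 70.0 and 132 CPM without (log2 change 1.81, SE 0.32, adjusted p = 0.00037, edgeR), and hexokinase HK2 rose by 1.70. Nuclear genes of oxidative phosphorylation had 12 of 43 higher and 0 lower (median 0.20). That count was 2 without TNRC6AB-/- siGL2 library 1 or 2 and 3 without TNRC6AB-/- library 1 or 2. Of 15 mitochondrially encoded genes 2 were higher and 0 lower (median -0.13), and the higher count ran from 1 to 3 with 1 library left out. The 2 rose by 0.91 and, in the ribosomal RNA gene MT-RNR1, by 3.775 on the log2 scale. The part of library preparation in this was not tested. Cholesterol genes had 2 of 25 higher and 2 lower, 8.0% each way and below the shares of all genes. HMGCS1, which makes a sterol precursor, was among the higher ones (0.69). Fatty acid genes had 2 of 18 higher (11.1%) and 4 lower (22.2%), or 1 to 2 lower without any library of either TNRC6AB-/- group other than untransfected library 1. Lysosome and autophagy genes had 0 of 30 higher and 8 lower (median -0.20), with the protease cathepsin D, CTSD, at 72.1, 65.1 and 57.5 CPM with siGL2 and 83.0, 98.8 and 110 CPM without (-0.58, adjusted p = 0.0014, edgeR). The lysosomal count was 4 without TNRC6AB-/- library 2 and 5 without TNRC6AB-/- siGL2 library 2 or 3.

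Epithelial genes had 13 of 44 members higher and 7 lower (median 0.25), and mesenchymal genes 5 of 36 higher and 7 lower (median -0.02). EPCAM, the epithelial adhesion molecule, was at 187, 174 and 156 CPM in TNRC6AB-/- siGL2 libraries and 53.4, 79.6 and 113 CPM in TNRC6AB-/- libraries (1.07, SE 0.20, adjusted p = 0.00068, edgeR). EVPL, a desmosomal plakin, fell by 1.09 and TJP3, a tight junction protein, by 1.15. Among mesenchymal genes SPARC, a matrix glycoprotein, was at 7.13, 6.41 and 5.92 CPM with siGL2 and 24.9, 20.8 and 34.4 CPM without (-2.04, SE 0.23), and S100A4, a calcium-binding protein of motile cells, fell by 1.06. The count of higher epithelial genes was 5 without TNRC6AB-/- siGL2 library 1 or TNRC6AB-/- library 1, 6 without TNRC6AB-/- library 2, 8 without TNRC6AB-/- siGL2 library 2 and 20 without TNRC6AB-/- library 3. The count of lower epithelial genes was 3 without TNRC6AB-/- siGL2 library 2 or 3 or TNRC6AB-/- library 3, and that of higher mesenchymal genes was 1 or 2 without TNRC6AB-/- siGL2 library 1 or 2 or TNRC6AB-/- library 1 or 2. Of 16 intestinal differentiation genes tested 0 were called in either direction.

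Genes often used to normalise qPCR were not level between the groups. Of 14 tested 5 were higher and 2 lower. HPRT1, of purine salvage, was at 54.9, 51.1 and 43.4 CPM with siGL2 and 27.96, 24.6 and 29.4 CPM without (0.87, SE 0.14, adjusted p = 0.00016, edgeR), and GUSB, a lysosomal glucuronidase, fell by 0.38 (adjusted p = 0.0095, edgeR), a call lost without TNRC6AB-/- library 2. The count of higher genes was 1 without TNRC6AB-/- siGL2 library 1 or 2, 2 without TNRC6AB-/- library 1 and 3 without TNRC6AB-/- library 2, and that of lower genes was 0 without TNRC6AB-/- library 2 and 1 without TNRC6AB-/- siGL2 library 3 or TNRC6AB-/- library 3.

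Small structured RNAs were called in part only. Of 205 small nucleolar RNA genes tested 3 were higher and 67 lower by the fold threshold, where 4.0% and 6.91% of all genes were, and their median was -0.59. The count of 67 was 37 without TNRC6AB-/- library 3 and 41 without TNRC6AB-/- siGL2 library 2. Of 139 small nuclear RNA genes 0 were higher and 15 lower (median -0.27), or 8 lower without TNRC6AB-/- siGL2 library 2, and of 440 genes annotated as miscellaneous RNA 18 were higher and 16 lower, or 9 lower without TNRC6AB-/- siGL2 library 1 or 2. RNU1-1 and SNORA73A are named after their values were seen. RNU1-1, a copy of the U1 splicing RNA whose reads cannot be assigned with certainty among near-identical copies, was at 130.0, 122 and 96.5 CPM in TNRC6AB-/- siGL2 libraries and 299, 447 and 1052 CPM in TNRC6AB-/- libraries (-2.37, SE 0.42, adjusted p = 0.00036, edgeR). SNORA73A, which acts in ribosomal RNA processing, was at 238, 206 and 165 CPM with siGL2 and 417, 554 and 1007 CPM without (-1.70, SE 0.35). Untransfected library 3 was the highest in both. The summed snoRNA level was 2259 to 2714 CPM with siGL2 and 2417, 2881 and 7592 CPM in untransfected libraries 1 to 3, so the sum set library 3 apart more than it set the groups apart. Mean fragment length also differed between the groups, as given above, and its part in this was not tested.

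The same duplex in wild-type cells gave a different count of genes in each direction. Between wild type siGL2 and wild type libraries 1531 genes were higher (6.34%) and 1562 lower (6.47%) by the fold threshold, and 3964 (16.4%) and 2031 (8.41%) by the adjusted p alone. A fit of the 6 wild-type libraries alone, with 21209 genes tested, called 24 genes higher and 66 lower, and the cause of this drop was not tested. The biological coefficient of variation was 0.22 in wild type and 0.12 in wild type siGL2 libraries, beside 0.04 in TNRC6AB-/- siTNRC6C libraries. The fit of all 24 libraries shares its estimate of spread over the 8 groups. The split also moved with scaling. With TMM from protein-coding genes alone, an alternative chosen after seeing the data, 730 genes were higher and 2187 lower in wild type siGL2 cells and the median of all genes there was -0.16, against -0.01 with TMM from all genes, while in TNRC6AB-/- siGL2 cells 823 were higher and 1825 lower. Of the 966 genes higher in TNRC6AB-/- siGL2 cells 278 were also higher in wild type siGL2 cells, which is 28.8% of these genes and 18.2% of the wild-type ones, and 13 were lower there. Of the 1669 genes lower in TNRC6AB-/- siGL2 cells 281 were lower in wild type siGL2 cells too, 16.8% and 18.0% of each list, and 79 were higher there.

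NEUROD2, RPS6KA6 and FGF23 rose and LIF fell in both genotypes. NEUROD2 was at 42.2, 42.5 and 55.2 CPM in wild type siGL2 libraries and 2.54, 3.21 and 2.02 CPM in wild type libraries (log2 change 4.17, SE 0.19), and its change differed between the genotypes by 0.30 (SE 0.26, adjusted p = 0.54, edgeR interaction). RPS6KA6 rose by 2.48 in wild-type cells and FGF23 by 2.11, with differences of 0.05 and 0.16 that did not pass. LIF fell by 1.14 in wild-type cells, a difference of -0.06, and EGR2 by 1.64. A p that misses the threshold does not show that these changes were equal.

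**Figure D3:**
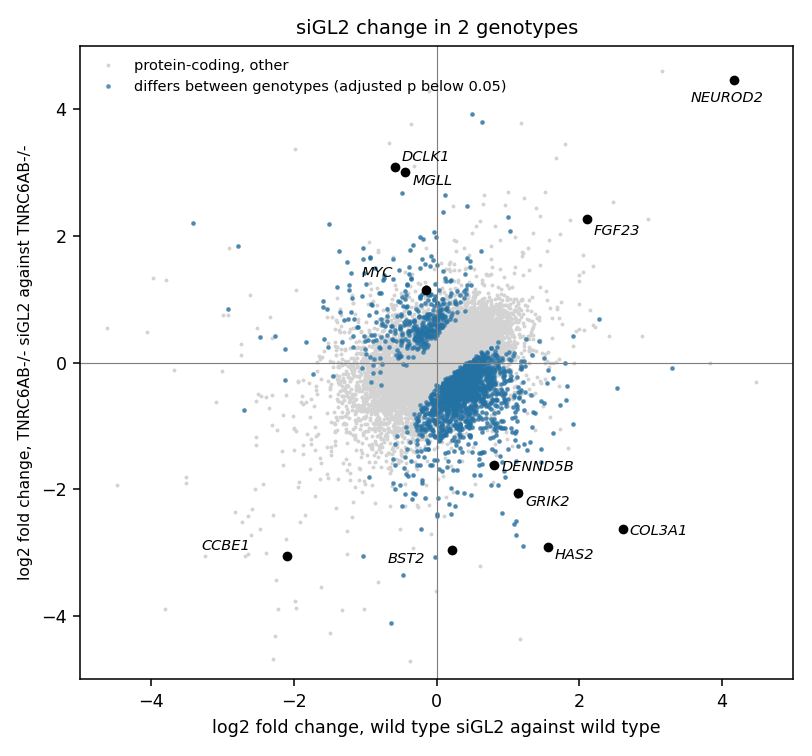
Log2 fold change of each protein-coding gene in TNRC6AB-/- siGL2 against TNRC6AB-/- cells (y axis) and in wild type siGL2 against wild type cells (x axis), with genes whose change differed between the genotypes in blue, genes labelled by name in black and 26 genes beyond a log2 fold change of 5 outside the axes. NEUROD2 and FGF23 lie near the diagonal at the upper right, and most blue genes lie below the diagonal, such as DENND5B, GRIK2, HAS2 and COL3A1, lower with siGL2 in TNRC6AB-/- cells and higher in wild-type cells. HAS2 averaged only 0.46 CPM in wild type siGL2 and 0.15 CPM in wild type libraries, and COL3A1 0.34 and 0.05 CPM.

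Where the genotypes differed, the change was more often the lower one in TNRC6AB-/- cells. By the interaction test 535 genes (2.22%) had a higher and 1569 (6.5%) a lower siGL2 change in TNRC6AB-/- than in wild-type cells. Of these 2104 genes 935 were themselves called lower in TNRC6AB-/- cells and 336 higher. In 229 genes the call was lower in TNRC6AB-/- cells and higher in wild-type cells, and in 41 the reverse. A fit of the 12 libraries alone called 870 genes by the interaction with the fold threshold, where the fit of all 24 called 1774 (460 higher, 1314 lower) and TMM from protein-coding genes gave 733 higher and 995 lower.

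The 6 protein-coding genes with the smallest interaction p all fell in TNRC6AB-/- cells and rose in wild-type cells. DENND5B (chromosome 12, 31382223 to 31591097, minus strand), an exchange factor for Rab GTPases, was at 118, 110 and 105 CPM in TNRC6AB-/- siGL2 libraries and 329, 386 and 309 CPM in TNRC6AB-/- libraries (log2 change -1.62, SE 0.13, adjusted p = 2.8e-08, edgeR). In wild-type cells it was at 128, 130 and 118 CPM with siGL2 and 72.3, 58.9 and 84.3 CPM without, a difference between genotypes of -2.42 (adjusted p = 4.9e-08, edgeR interaction). After transfection the levels in both genotypes thus lay close together, and without it they lay far apart.

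SESN3 (chromosome 11, 95165513 to 95232541, minus strand), a sestrin that damps mTORC1, was at 54.2, 50.0 and 44.8 CPM in TNRC6AB-/- siGL2 libraries and 125, 136 and 126 CPM in TNRC6AB-/- libraries (-1.38, SE 0.14, adjusted p = 7.4e-07, edgeR). In wild-type cells it was at 48.4, 43.6 and 41.5 CPM with siGL2 and 20.2, 13.4 and 21.8 CPM without (difference -2.65). GRIK2 (chromosome 6, 101181257 to 102070083, plus strand), a kainate receptor subunit, was at 13.2, 13.7 and 13.4 CPM in TNRC6AB-/- siGL2 libraries and 43.4, 71.8 and 53.2 CPM in TNRC6AB-/- libraries (-2.06, SE 0.17). Unlike DENND5B and SESN3 it stayed higher in the knockout after siGL2 transfection, since wild type siGL2 libraries held 2.02 to 3.29 CPM. TMEM200A, a transmembrane protein, fell by 1.93 in TNRC6AB-/- and rose by 0.76 in wild-type cells, HTR7, a serotonin receptor, fell by 1.93 and rose by 0.86, and DDIT4L fell by 2.55 and rose by 1.08.

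**Figure D4:**
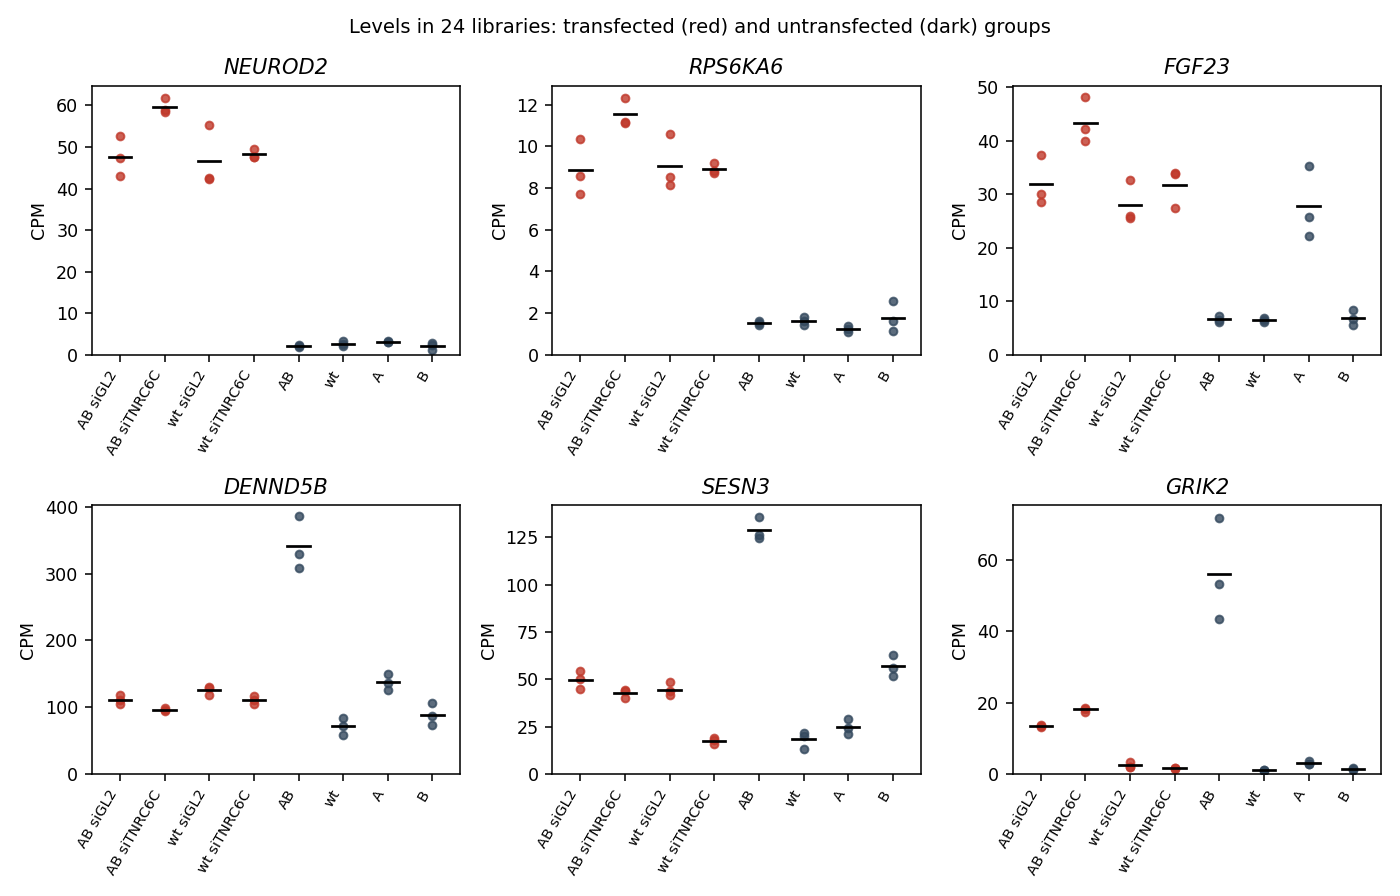
CPM of 6 genes in all 24 libraries, with transfected groups in red, untransfected groups in dark blue and bars at the means of 3 (AB is TNRC6AB-/-, A is TNRC6A-/-, B is TNRC6B-/- and wt is wild type). NEUROD2 and RPS6KA6 separate the 4 transfected groups from the 4 untransfected ones, FGF23 is also high in untransfected TNRC6A-/- cells, and DENND5B, SESN3 and GRIK2 are highest in untransfected TNRC6AB-/- cells. Mean fragment length separated the same transfected and untransfected groups, and its part in these levels was not tested.

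Over all 8 groups NEUROD2 averaged 47.7 ± 4.72 CPM in TNRC6AB-/- siGL2, 59.7 ± 1.74 in TNRC6AB-/- siTNRC6C, 46.6 ± 7.43 in wild type siGL2 and 48.2 ± 1.14 CPM in wild type siTNRC6C cells (mean ± SD, n = 3 each). Without transfection it averaged 2.15 ± 0.19 CPM in TNRC6AB-/-, 2.59 ± 0.60 in wild type, 3.10 ± 0.15 in TNRC6A-/- and 2.15 ± 0.83 CPM in TNRC6B-/- cells. RPS6KA6 averaged 8.87 to 11.5 CPM in the 4 transfected groups and 1.25 to 1.79 CPM in the 4 untransfected ones. Mean fragment length divided the transfected from the untransfected libraries too, as given above, so the 2 cannot be told apart. FGF23 averaged 28.1 to 43.4 CPM with a duplex and 6.51 to 6.87 CPM without, apart from 27.8 ± 6.80 CPM in untransfected TNRC6A-/- cells, which overlapped the transfected groups. DENND5B averaged 341 ± 40.0 CPM in TNRC6AB-/- cells, above every other group, which averaged 71.8 to 137 CPM. SESN3 came together between the genotypes with siGL2 but not with siTNRC6C. It averaged 42.8 CPM in TNRC6AB-/- siTNRC6C and 17.5 CPM in wild type siTNRC6C cells, beside 18.45 CPM in untransfected wild-type cells. Changes in TNRC6AB-/- siTNRC6C cells against TNRC6AB-/- cells share the untransfected libraries with the siGL2 comparison, and are given as values only. They were 4.79 for NEUROD2, 2.91 for RPS6KA6 and 2.71 for FGF23 on the log2 scale, -1.83 for DENND5B, -1.59 for SESN3 and -1.63 for GRIK2, and their list medians were 0.23 for ribosome biogenesis, 0.42 for G2 and mitosis, -0.81 for interferon-stimulated and -0.90 for class I genes.

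Ribosome biogenesis, interferon-stimulated and class I genes were lists in which the genotypes differed. Of 44 ribosome biogenesis and MYC genes 6 were higher and 2 lower in wild type siGL2 cells (median 0.11), where 16.4% and 8.41% of all genes were. By the interaction test 17 had a higher siGL2 change in TNRC6AB-/- cells, where 2.22% of all genes did. MYC was at 270.4, 278 and 212 CPM in wild type siGL2 and 300.4, 228 and 314 CPM in wild type libraries (log2 change -0.15), a difference of 1.30 (SE 0.31, adjusted p = 0.011, edgeR interaction). The count of 17 was 9 without TNRC6AB-/- siGL2 library 2 or wild type siGL2 library 3, 10 without TNRC6AB-/- siGL2 library 1, and 11 without wild type siGL2 library 2. The wild-type count of 6 was 1 without wild type library 2 or wild type siGL2 library 1 or 2, and 11 without wild type siGL2 library 3. With TMM from protein-coding genes the count of 17 was 30.

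Of the 50 interferon-stimulated genes 6 were higher and 0 lower in wild type siGL2 cells (median 0.15), where 16.4% and 8.41% of all genes were. A lower siGL2 change in TNRC6AB-/- cells was called in 22, where 6.5% of all genes had one. STAT2 was at 45.6, 45.7 and 46.6 CPM in wild type siGL2 and 48.2, 50.8 and 45.2 CPM in wild type libraries (-0.06), a difference of -0.72 (adjusted p = 0.0015, edgeR interaction). The count of 22 was 35 without TNRC6AB-/- library 1, 11 without library 2, 13 without library 3 and 8 in a fit of the 12 libraries alone. The wild-type count of 6 ran between 0 without wild type library 2 and 13 without TNRC6AB-/- library 1. In the 6 wild-type libraries alone it was 0. Of the 20 class I genes 3 were higher and 0 lower in wild type siGL2 cells, or 1 to 6 higher with 1 library left out (1 without wild type library 2 or wild type siGL2 library 1 or 2, 5 without wild type library 3 or wild type siGL2 library 3, and 6 without TNRC6AB-/- library 1), and 13 had a lower change in TNRC6AB-/- cells, a count that was 4 in the 12 libraries alone. B2M was at 298, 298 and 239.6 CPM in wild type siGL2 and 188, 161 and 225 CPM in wild type libraries (0.54), which differed from the change in TNRC6AB-/- cells by -1.15 (adjusted p = 0.0039, edgeR interaction).

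Of all genes 16.4% were higher and 8.41% lower in wild type siGL2 cells by the adjusted p, against 9.73% and 10.4% in TNRC6AB-/- siGL2 cells. The interaction called 2.22% of all genes higher and 6.5% lower. Beside these shares, cholesterol genes were higher in 17 of 25 members in wild type siGL2 cells (median 0.71) against 2 in TNRC6AB-/- siGL2 cells (median 0.08). By the interaction test 6 had a lower change in TNRC6AB-/- cells. Lysosome and autophagy genes were higher in 12 of 30 in wild type siGL2 cells and 9 had a lower change in TNRC6AB-/- cells. The integrated stress response had 8 of 31 lower in wild type siGL2 cells (median -0.70) and 3 with a higher change in TNRC6AB-/- cells, SLC7A5 among them (difference 2.35, adjusted p = 0.0029, edgeR interaction). AP-1 and immediate early genes were lower in 14 of 35 in wild type siGL2 cells (median -0.37), and the interaction called 4 higher and 2 lower. HMGA2 was lower in wild type siGL2 cells (317, 319 and 317 CPM) than in wild type cells (413, 492 and 426 CPM), and its change differed between the genotypes by 0.95 (adjusted p = 4.8e-05, edgeR interaction). Heat shock proteins were higher in 12 of 18 and p53 targets in 19 of 34 in wild type siGL2 cells, and the interaction called 0 of the heat shock proteins and 5 of the p53 targets. Most of these counts moved with single libraries. Without wild type library 2 the wild-type counts were 7 for lysosome genes, 0 for the stress response, 8 for AP-1 genes and 7 for heat shock proteins, and without wild type siGL2 library 1 they were 11 for cholesterol genes, 7 for lysosome genes, 2 for the stress response and 7 for heat shock proteins. The stress response count was also 3 without wild type siGL2 library 2 or wild type library 1, 5 without wild type siGL2 library 3, and 21 without wild type library 3. In the edgeR fit of the 6 wild-type libraries alone these counts were 0 for cholesterol, lysosome, stress response and heat shock genes, 2 for p53 targets and 6 for AP-1 genes. The 3 stress response genes that differed between the genotypes were 1 without TNRC6AB-/- siGL2 library 2, wild type siGL2 library 1 or 2, or wild type library 1 or 2, and 16 without wild type library 3. The 6 cholesterol genes that differed were 2 without TNRC6AB-/- library 2 or TNRC6AB-/- siGL2 library 3, 3 without wild type siGL2 library 1 or 2, and 16 without wild type library 3, and the 9 lysosome genes were 4 without TNRC6AB-/- library 2, 5 without TNRC6AB-/- siGL2 library 3 and 14 without TNRC6AB-/- library 1. Of the 5 p53 targets the 4 with a lower change were 0 without TNRC6AB-/- library 2, 2 without TNRC6AB-/- siGL2 library 3 and 7 without TNRC6AB-/- library 1.

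**Figure D5:**
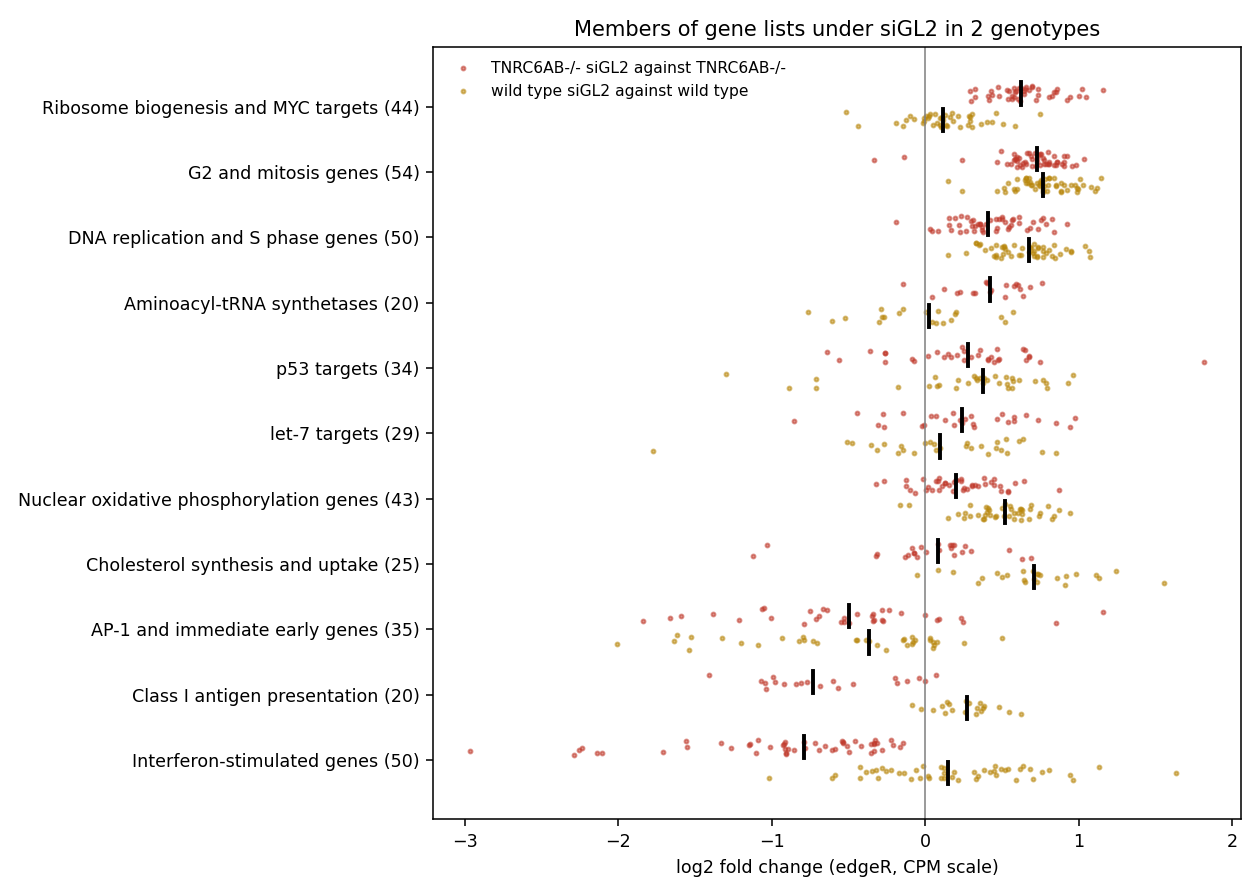
Log2 fold changes of the members of 11 gene lists in TNRC6AB-/- siGL2 against TNRC6AB-/- cells (red) and in wild type siGL2 against wild type cells (gold), 1 point per gene, with black bars at the medians and the number of genes tested in brackets. Both medians of G2 and mitosis genes lie near 0.7, while interferon-stimulated and class I genes have medians of -0.79 and -0.73 in TNRC6AB-/- and of 0.15 and 0.27 in wild-type cells.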

How the data were processed

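The 6 compared libraries and the 18 others were analysed from the tables the authors deposited, which hold for 199612 transcripts an estimated count of reads, not whole, and an abundance in TPM (scaled for transcript length and depth), both written by the authors' Salmon runs. The submitters' processing notes name Salmon 0.11.0, STAR 2.5.3a, DESeq2 and the build hg38; the sample labels name Trizol and an Illumina kit for whole-transcriptome libraries that keeps strand. The authors pooled no replicates. Transcripts were joined to GENCODE 29 (199368 matched; the 244 others held at most 0.0544% of a library's reads), estimated counts were added up over 57721 genes (44889 held reads) and rounded. Depth ran between 28144290 and 42689320 reads per library, and p-values reflect the spread between libraries, not counting error alone.

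Genes that passed edgeR's filterByExpr were scaled by TMM and fitted in edgeR 4.0.16 (R 4.3.3) with a mean for each of 8 groups over all 24 libraries (16 residual degrees of freedom). The glmQLFTest compared TNRC6AB-/- siGL2 with TNRC6AB-/-, wild type siGL2 with wild type, and the difference between both (interaction), each with Benjamini-Hochberg adjustment over 24153 genes. The script was checked on simulated counts. No source says that the 3 libraries of a group are separate cultures, so p-values measure only the spread between these samples, which may be technical. Replicates differed by more than sampling noise (chi-square per degree of freedom 2.84 to 66.6), so none was counted as a duplicate.

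The comparison, its gene lists and its tests were chosen with earlier results of these data known. Genes were named by rule: the 12 protein-coding genes with the largest rise and the 12 with the largest fall among changed genes with at least 5 CPM in the higher group and no overlap, up to 4 members per list, by smallest adjusted p, TNRC6 and Argonaute paralogs, and the 6 protein-coding genes with the smallest interaction p. Of the largest rises 1 is not reported here. UTP20, TRIM22, CDC25B, HSP90AA1, class I chaperones, double-stranded RNA sensors, OAS1, COL1A1 and the other markers were named in addition, after their values were seen. 3′ UTRs are those of the transcript with the most TPM per gene in GENCODE 29 (GRCh38), and the siGL2 strands come from the study's list of oligonucleotides. Alternatives were DESeq2 1.42.0, RLE scaling, no expression filter, the compared libraries alone, limma 3.58.1 voom with a weight per group, counts scaled from TPM and length, a replicate block, and leaving out each library. TMM from protein-coding genes, the wild-type libraries left out and the alternatives of the wild-type comparison were chosen after seeing the data.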

Additional observations from a re-analysis of the deposited data

Results flagged for a closer look

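For 52 genes described above, the change with siGL2 differed between TNRC6AB-/- and wild-type cells by edgeR's interaction test at an adjusted p below 0.05, and the values below are the log2 change in TNRC6AB-/- cells minus that in wild-type cells. The change was higher in TNRC6AB-/- cells by 3.67 for DCLK1, 3.44 for MGLL, 3.17 for NRG1, 2.53 for SUN3, 2.35 for SLC7A5, 1.30 for MYC, 1.30 for DACT1, 1.19 for EPCAM, 1.05 for GAL, 0.95 for HMGA2, 0.83 for IARS, 0.72 for FARSB, 0.72 for WDR43, 0.69 for HEATR1, 0.64 for DDX10.

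The change was lower in TNRC6AB-/- cells for the remaining genes. The differences were -5.23 for COL3A1, -4.46 for HAS2, -4.10 for SYTL5, -3.63 for DDIT4L, -3.21 for GRIK2, -3.18 for BST2, -2.79 for HTR7, -2.69 for TMEM200A, -2.65 for RNU1-1, -2.65 for SESN3, -2.52 for HMCN1, -2.42 for DENND5B, -2.42 for SUSD2. They were -2.40 for IFITM1, -2.32 for SPARC, -2.16 for PARP10, -2.13 for TNFRSF19, -2.03 for TNFSF18, -1.98 for CNTNAP3, -1.86 for IFI35, -1.77 for SLC30A10, -1.44 for ZEB1, -1.40 for HLA-E, -1.26 for JUNB, -1.23 for TJP3, -1.15 for B2M. Smaller ones were -1.15 for HLA-C, -1.14 for S100A4, -1.07 for TAPBP, -1.06 for NQO1, -1.03 for PSME1, -0.92 for PHLDA1, -0.91 for CTSD, -0.83 for GUSB, -0.78 for CD44, -0.72 for STAT2, -0.68 for EVPL. Wild-type levels were near the floor in the genes with the largest differences. COL3A1 averaged 0.34 CPM in wild type siGL2 and 0.05 CPM in wild type libraries. HAS2 averaged 0.46 and 0.15 CPM there, and SYTL5 0.89 and 0.39 CPM. In a fit of the 12 libraries of the 4 groups alone, the differences of GAL, STAT2, PSME1, HLA-C, EVPL, S100A4 and PHLDA1 did not pass. With 1 library left out, those of CD44, DACT1, EVPL, FARSB, GAL, IARS, PHLDA1 and WDR43 did not pass at least once. No group had the 4 libraries needed for the search for single outlying libraries.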

How the results depend on the processing

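No call on a gene named by rule changed its direction under any alternative run, but the split of all calls did. In TNRC6AB-/- cells a replicate block in the 6 libraries alone gave 912 higher and 888 lower genes, where 966 were higher and 1669 lower. In wild-type cells, with 1531 higher and 1562 lower, more genes were higher than lower with DESeq2 (1489 and 1484), voom (1412 and 787), counts scaled from TPM and length (1485 and 1289) or a replicate block (1593 and 1450), and without any 1 TNRC6AB-/- siGL2, wild type siGL2 or wild type library. The numbers of changed genes moved as follows. Leaving out 1 library gave 1978 to 2820 changed genes in TNRC6AB-/- siGL2 against TNRC6AB-/- cells (674 to 1212 higher, 1193 to 1790 lower), 1026 to 4616 in wild type siGL2 against wild type cells (573 to 2500 higher, 453 to 2272 lower) and 966 to 2638 for the difference between the genotypes (296 to 729 higher, 586 to 1924 lower). The 12 libraries of the 4 groups alone gave 1986 changed genes in wild-type cells (784 higher) and 870 for the difference (521 lower), and the 6 wild-type libraries alone gave 90 (24 higher, 66 lower). With voom 787 genes were lower in wild-type cells, and without an expression filter 753 had a higher difference. TMM from protein-coding genes, chosen after seeing the data, gave 730 higher in wild-type cells and 733 higher for the difference. The cause of these shifts was not tested.

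Replicate numbers did not pair the libraries. Deviations from the group means of same-numbered TNRC6AB-/- siGL2 and TNRC6AB-/- libraries correlated at -0.322, 0.0322 and -0.264, and of these 6 libraries only siGL2 library 2 correlated best with its own number. With the replicate number as a block, 2556 genes changed in TNRC6AB-/- cells, 3043 in wild-type cells and 1664 for the difference, and a block in the 6 libraries alone gave 912 higher and 888 lower.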
